A study of Rattus norvegicus with 24 samples.

Results

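Small noncoding RNA rows of a rat urethral 3ʹ mRNA dataset were described, namely the rows named for the signal recognition particle RNA (Metazoa_SRP, Rn7s), the spliceosomal U RNAs, U7, 7SK, Y_RNA, the SNORA and SNORD families and Gm26083. The rows were selected on their own values, by a mean over the 24 samples of 10 normalized counts or more. There were 62 such rows among 2177 with these names and 32883 in the whole table. Of the 2177, 1738 were at 0 in all 24 samples and 439 had at least 1 read. The 62 rows carried 90.4% of the counts on all 2177. By class they were 16 U6 rows (of 919 so named), 12 SRP RNA rows (of 34), 9 U1 (of 220), 8 C/D box snoRNA (of 153), 6 H/ACA box snoRNA (of 101), 4 7SK (of 424), 2 U2 (of 86), 2 Y RNA (of 28), 1 U4 (of 115), 1 U7 (of 83) and Gm26083. None of the 13 U5 rows reached the minimum. The last rows inside it were U6 (ENSRNOG00000057888) at 10.4 and U6 (ENSRNOG00000058811) at 10.7, and the first outside it were U1 (ENSRNOG00000053982) at 9.95, U6 (ENSRNOG00000059094) at 9.65 and Rn7sl1 at 9.64.

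The SRP RNA is the scaffold of the particle that brings ribosomes making secreted proteins to the endoplasmic reticulum. U1, U2, U4 and U6 are the RNA cores of spliceosomal particles, U7 guides the trimming of histone mRNA ends, 7SK holds the elongation factor P-TEFb inactive and Y RNAs bind the Ro protein. H/ACA and C/D box snoRNAs guide pseudouridylation and 2ʹ-O-methylation, mainly of ribosomal RNA, and most of them are cut out of introns of host genes. These RNAs normally have no long poly(A) tail. The libraries were primed with oligo-dT, so a count here is a read primed on or near such a row and not a measure of how much of the RNA a cell held. These genes also have many near-identical copies and pseudogenes, and 49 of the 62 rows shared their name with another of the 62. Reads that mapped to several places had been discarded by the authors. A read of a perfect copy was therefore lost, and 1 differing base could decide which row a read was given to. Single rows are thus uncertain, and each is kept apart by its Ensembl identifier.

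The samples were urethras of female virgin Sprague-Dawley rats of 12 weeks. All rats, the controls included, had simulated vaginal delivery (SVD), a crush of the pudendal nerves with distension of the vagina. One hour later they received saline, MABsallo or MABsallo-VEGF into the aorta. MABsallo are mesoangioblasts, vessel-associated progenitors, taken from the muscle of another rat and carrying a lentiviral eGFP and luciferase reporter driven by the CMV promoter. MABsallo-VEGF carried lentiviral VEGF165 and truncated CD34 driven by the SFFV promoter. The paper also followed MABsallo-VEGF by bioluminescence and states that transduced cells were sorted for GFP. The labels give WT for saline and MABsallo and VEGF OE for MABsallo-VEGF. Urethras were collected 3d or 7d after SVD, with 4 samples in each of the 6 groups, and the labels mark MABsallo-VEGF replicates 6 and 7 of 7d as recovery. A sample is a whole urethra, in which more cells of a type and more RNA per cell cannot be told apart.

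Each sample had 2170695 to 10166052 reads on genes, and 1 read was worth 1.67 to 9.23 normalized counts. The MABsallo samples of 3d were the shallowest, with 2170695 to 4491900 reads, and saline at 3d had 4851797 to 5249467. The 62 rows held 0.0081% to 0.156% of a sample's counts. Markers of smooth muscle, striated muscle and urothelium were present in every group, with the summed smooth muscle list at 24164 to 324567 normalized counts. Saline 3d replicate 8 had the lowest smooth muscle sum and, at 780, the lowest urothelial sum. At 3d the summed macrophage list (8 genes) spanned 10123 to 22283 in saline, 1313 to 10170 in MABsallo and 3817 to 15119 in MABsallo-VEGF, and the mast cell list (8 genes) spanned 637 to 2485, 246 to 376 and 178 to 708. In MABsallo against saline, 4 macrophage and 6 mast cell genes fell, 2 of 6 striated muscle and 1 of 8 urothelial genes rose, and no smooth muscle or erythroid gene passed, by the test used below. In MABsallo-VEGF against saline no gene of these lists passed in 24 samples. The part of these cells in the results that follow was not tested.

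A pair of samples stood apart from their groups. Saline 3d replicate 6 resembled the cell-treated samples of 3d in the SRP RNA rows, Gm26083 and some snoRNA rows described below. MABsallo-VEGF 3d replicate 4 resembled the other saline samples in the SRP RNA rows and some snoRNA rows. Other rows, among them those of U1, U2, U4 and U6, did not set the pair apart in this way. Another row that moved with this split was AY172581.24, named after a rat mitochondrial genome sequence. It took 7.31% of the counts in saline 3d replicate 6 and 0.409% to 2.11% in the other saline samples of 3d. It took 12.1% to 20.7% in MABsallo and 15.6% to 20.6% in MABsallo-VEGF replicates 1 to 3, but 3.46% in replicate 4. At 7d its share was 0.27% to 1.14%. The summed erythroid list also moved with this split. At 3d it was 38875 in saline replicate 6 and 366903 to 572866 in the other saline samples. It was 67139 to 263852 in MABsallo and 22429 to 192092 in MABsallo-VEGF replicates 1 to 3, but 445982 in replicate 4. At 7d it spanned 78350 to 1917200. The part of AY172581.24, of the erythroid genes, or of what sets their levels, in the results was not tested. Results are therefore given for all 24 samples and for the 22 samples without this pair. As the pair is unlike their groups, calls in the 22 samples are a description of the remaining samples and no independent test.

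**Figure D1:**
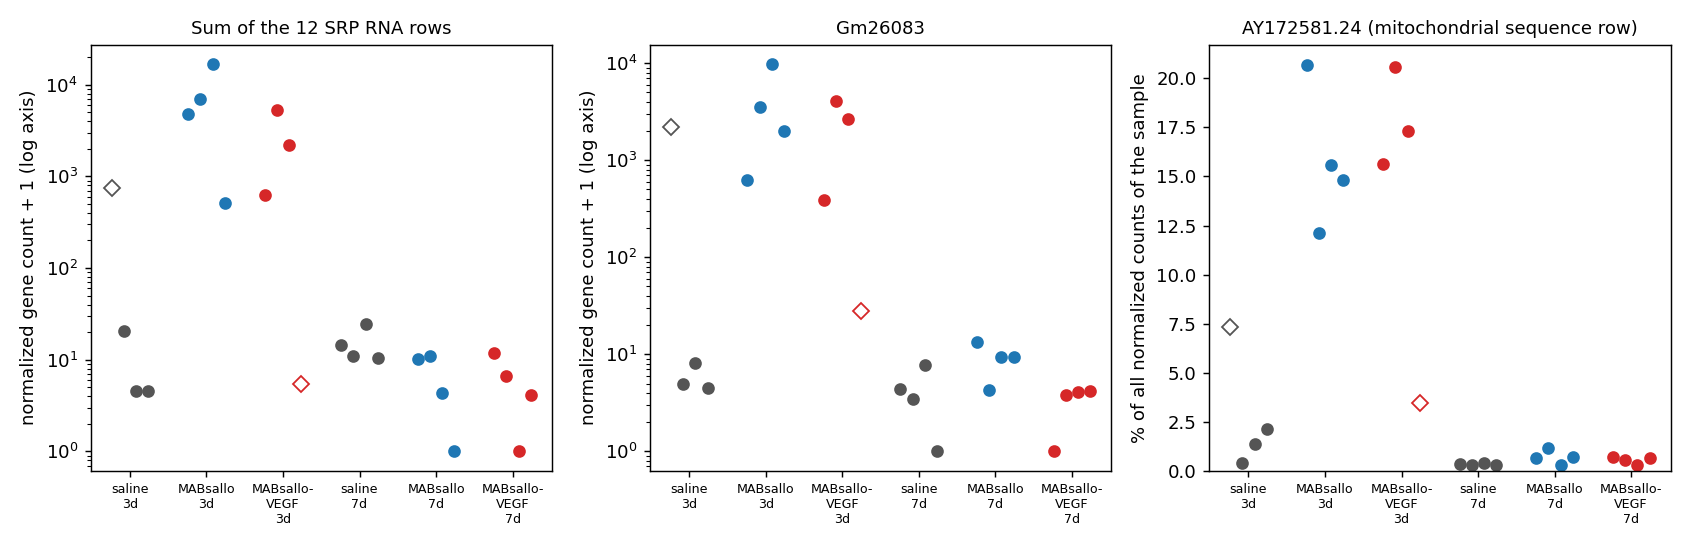
Points are samples, by treatment and day. The left and middle panels give normalized gene counts plus 1 on a log axis for the sum of 12 SRP RNA rows and for Gm26083, and the right panel gives the share of AY172581.24 in percent. Open diamonds are saline 3d replicate 6 and MABsallo-VEGF 3d replicate 4. The first lies with the cell-treated samples for SRP RNA and Gm26083, the second lies with saline for SRP RNA, and both lie between the groups for AY172581.24, at 7.31% and 3.46%.

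SRP RNA rows showed the widest range of all classes. In saline at 3d the 12 rows summed to 754 normalized counts in replicate 6, 19.6 in replicate 8, 3.57 in replicate 9 and 3.52 in replicate 10. In MABsallo they summed to 4757, 6910, 16857 and 515 in replicates 1 to 4. In MABsallo-VEGF they summed to 622, 5292, 2220 and 4.45. The 12 samples of 7d all lay between 0 and 23.4. So 8 samples of 3d held more than 500 counts, and the other 16 samples of the study held fewer than 25. The means were 195 ± 373 in saline, 7260 ± 6928 in MABsallo and 2035 ± 2364 in MABsallo-VEGF (SD, n = 4), with SDs close to or above the means.

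The highest SRP RNA row was Metazoa_SRP (ENSRNOG00000059449). It had 98, 1, 0 and 1 reads in saline, 303, 622, 926 and 37 reads in MABsallo and 66, 301, 217 and 0 reads in MABsallo-VEGF at 3d. At 7d it had at most 13.4 normalized counts. MABsallo replicate 3, the highest sample, had the fewest reads of all 24, whereas saline replicate 6 had the most reads of its group, and the part of depth in the result was not tested. The row took 38.9% to 57.4% of the SRP RNA sum in each of the 8 high samples. In the next row, Metazoa_SRP (ENSRNOG00000053902), the values were 99.9, 7.84, 3.57 and 0 in saline, 1143, 1335, 3748 and 81.4 in MABsallo and 75.7, 942, 409 and 4.45 in MABsallo-VEGF. The third, Metazoa_SRP (ENSRNOG00000048993), had 141, 3.92, 0 and 0 in saline, 774, 990, 1911 and 114 in MABsallo and 75.7, 1067, 298 and 0 in MABsallo-VEGF. In all 3 rows MABsallo replicate 4 lay below saline replicate 6, and the other MABsallo samples lay above every saline sample.

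With limma on log2(normalized gene count + 1), over 16287 genes and with Benjamini-Hochberg adjustment, 10 of the 12 SRP RNA rows rose in MABsallo against saline at 3d. A row was called at an adjusted p below 0.05 with a log2 fold change beyond 1, which was met by 12.3% of all genes tested. The highest row differed by 7.66 on the log2 scale (SE 1.79, adjusted p = 0.0112), Metazoa_SRP (ENSRNOG00000053902) by 6.70 (SE 1.43, adjusted p = 0.00760) and Metazoa_SRP (ENSRNOG00000048993) by 6.96 (SE 1.62, adjusted p = 0.0109). The largest differences among called rows whose groups did not overlap were those of Metazoa_SRP (ENSRNOG00000055749) at 5.90, Metazoa_SRP (ENSRNOG00000054045) at 5.69 and Metazoa_SRP (ENSRNOG00000052253) at 5.52. Their saline samples held 0 to 13.8 normalized counts, and their MABsallo samples 16.3 to 360. In reads, saline replicate 6 and MABsallo replicate 4 had 4 and 5, 0 and 3, and 4 and 3 in these rows, in the same order. The lack of overlap thus rests on few reads, and in Metazoa_SRP (ENSRNOG00000052253) it does not hold in reads. The SEs come from a spread shared by all groups, and in the 7d groups these rows were at or near 0. With only saline and MABsallo of 3d fitted, no SRP RNA row was called. In the fit of all 24 samples the median log2 fold change was 5.68 over the 12 rows and 0.07 over all genes tested. Most of these rows met the minimum only through the cell-treated samples of 3d. Over the other 16 samples 1 of the 12 had a mean of at least 10. The share called and the median are therefore no support for a rise of the class, here or in MABsallo-VEGF. In the 22 samples all 12 rows rose, against 18.1% of all genes, and the highest row differed by 9.39 (SE 1.05, adjusted p = 1.70e-05).

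In MABsallo-VEGF against saline at 3d no SRP RNA row passed the test in 24 samples, where 0.0307% of all genes did. The 12 rows had log2 fold changes of 1.10 to 4.25, 10 of them with an unadjusted p below 0.05, and the lowest adjusted p was 0.133. In the 22 samples 11 of the 12 rose, against 13.6% of all genes. The highest row differed by 8.47 (SE 1.12, adjusted p = 0.000137). Leaving out only saline replicate 6 gave 11 called rows among the 62, and leaving out only MABsallo-VEGF replicate 4 gave 15. The share of all genes called in these fits is not given here, so these counts cannot be set against a background. Both comparisons use the same saline samples.

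Gm26083 is a predicted gene that followed the same samples. It had 2217, 3.92, 7.15 and 3.52 normalized counts in saline, 625, 3518, 9813 and 2007 in MABsallo and 384, 4067, 2679 and 26.7 in MABsallo-VEGF at 3d. At 7d it stayed between 0 and 12.4 in all 12 samples. Its ratio to the SRP RNA sum was not constant among the 8 high samples. The ratio was 0.131 to 0.582 in MABsallo replicates 1 to 3 and 0.617 to 1.21 in MABsallo-VEGF replicates 1 to 3, but 2.94 in saline replicate 6 and 3.90 in MABsallo replicate 4. Gm26083 rose in MABsallo against saline by 6.67 on the log2 scale (SE 1.54, adjusted p = 0.0105 by limma). In MABsallo-VEGF its difference of 4.54 did not pass (adjusted p = 0.136). The MABsallo call was lost without saline replicate 8, where the difference was 5.89, and with DESeq2 (2.84) and edgeR (2.78) on recovered reads. In the 22 samples Gm26083 rose by 8.83 (adjusted p = 1.00e-05) and 8.16 (adjusted p = 5.43e-05), from 1 or 2 reads in each remaining saline sample. SRP RNA rows and Gm26083 together made up 23.2% to 85.3% of the counts of the 62 rows in the 8 high samples and at most 1.40% in the other 16.

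H/ACA box snoRNA rows differed in how steady they were. SNORA73 (ENSRNOG00000052528), of the family encoded in Snhg3, was well detected in all 24 samples. Its values were 227, 122, 275 and 158 in saline, 249, 148, 249 and 174 in MABsallo and 265, 217, 182 and 107 in MABsallo-VEGF at 3d, and 148 to 295 at 7d. Its groups overlapped throughout, and its adjusted p in MABsallo against saline was 0.865. The other SNORA73 row (ENSRNOG00000052439) had 20.7, 0, 17.9 and 7.04 in saline, 14.2, 21.9, 18.5 and 114 in MABsallo and 5.41, 108, 80.7 and 13.4 in MABsallo-VEGF, at most 23.2 at 7d, and was called in neither comparison with saline. The remaining 4 rows had at most 9.43 at 7d. SNORA62 (ENSRNOG00000058283), of the Rpsa family, had 172, 0, 0 and 0 in saline, 0, 126, 277 and 5.42 in MABsallo and 27.0, 208, 197 and 8.91 in MABsallo-VEGF, and at most 9.43 at 7d. SNORA71 (ENSRNOG00000058944) had 20.7, 0, 0 and 0 in saline, 21.3, 65.6, 323 and 5.42 in MABsallo and 5.41, 125, 55.5 and 0 in MABsallo-VEGF, and at most 3.35 at 7d. SNORA71 rose in MABsallo by 4.28 (SE 1.29, adjusted p = 0.0302), with 1 to 35 reads in these 4 samples. The call was lost on leaving out MABsallo replicate 1, 2 or 3 or saline replicate 8, 9 or 10, and with DESeq2. SNORA74 was at 0 in all 12 samples of 7d and reached 231 in MABsallo replicate 3, and SNORA70 reached 120 there against at most 3.31 at 7d. Without the pair, SNORA62, SNORA71, SNORA70 and SNORA74 rose in MABsallo and the first 3 of them also in MABsallo-VEGF.

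Among the C/D box snoRNA rows, some were likewise low at 7d. SNORD24 (ENSRNOG00000060649) had 34.4, 0, 0 and 0 in saline, 35.5, 54.7, 64.6 and 10.8 in MABsallo and 32.4, 100, 50.4 and 44.5 in MABsallo-VEGF. It was the only C/D row that rose in MABsallo in 24 samples (log2 fold change 3.86, SE 1.11, adjusted p = 0.0246), and it was also present in MABsallo-VEGF replicate 4. Leaving out MABsallo replicate 1, 2 or 3 or saline replicate 8, 9 or 10 ended this call, as did DESeq2 and edgeR on recovered reads. SNORD15 (ENSRNOG00000055569), of the Rps3 family, reached 323 and 619 in MABsallo replicates 2 and 3 but was at 0 in replicate 4, and at most 3.31 at 7d. SNORD16 (ENSRNOG00000054329) had 27.1 to 71.0 in MABsallo against 0 to 17.2 in saline, with 9.46 as its highest value at 7d. Without the pair, SNORD15, SNORD24, SNORD16 and SNORD14 (ENSRNOG00000060267) rose in MABsallo, and SNORD24 and SNORD16 in MABsallo-VEGF.

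The C/D rows that were well detected at 7d differed among themselves. SNORD81 (ENSRNOG00000052013), of the Gas5 family, had 89.5, 337, 157 and 98.5 in saline and 63.9, 82.1, 83.1 and 43.4 in MABsallo at 3d. The lowest saline sample lay just above the highest MABsallo sample, and the difference of -1.15 on the log2 scale did not pass (SE 0.50, adjusted p = 0.119). In MABsallo-VEGF it had 162, 100, 50.4 and 178, within the saline range or below, and 58.1 to 435 at 7d. SNORD14 (ENSRNOG00000054774), of a family hosted by Hspa8 and Rps13, had 46.5 to 141 in saline, 7.10 to 87.5 in MABsallo, 35.6 to 75.0 in MABsallo-VEGF and 64.7 to 789 at 7d. Its highest value belonged to 1 sample, MABsallo 7d replicate 13. SNORD22 (ENSRNOG00000056397), of the Snhg1 family, had 86.1, 31.4, 14.3 and 45.7 in saline, 128, 312, 563 and 16.3 in MABsallo and 81.1, 142, 277 and 49.0 in MABsallo-VEGF, and 21.7 to 208 at 7d. Its high samples of 3d were largely those of the SRP RNA rows, but its differences of 1.90 and 1.58 did not pass (adjusted p = 0.120 and 0.324), nor did those of 2.30 and 2.38 without the pair.

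**Figure D2:**
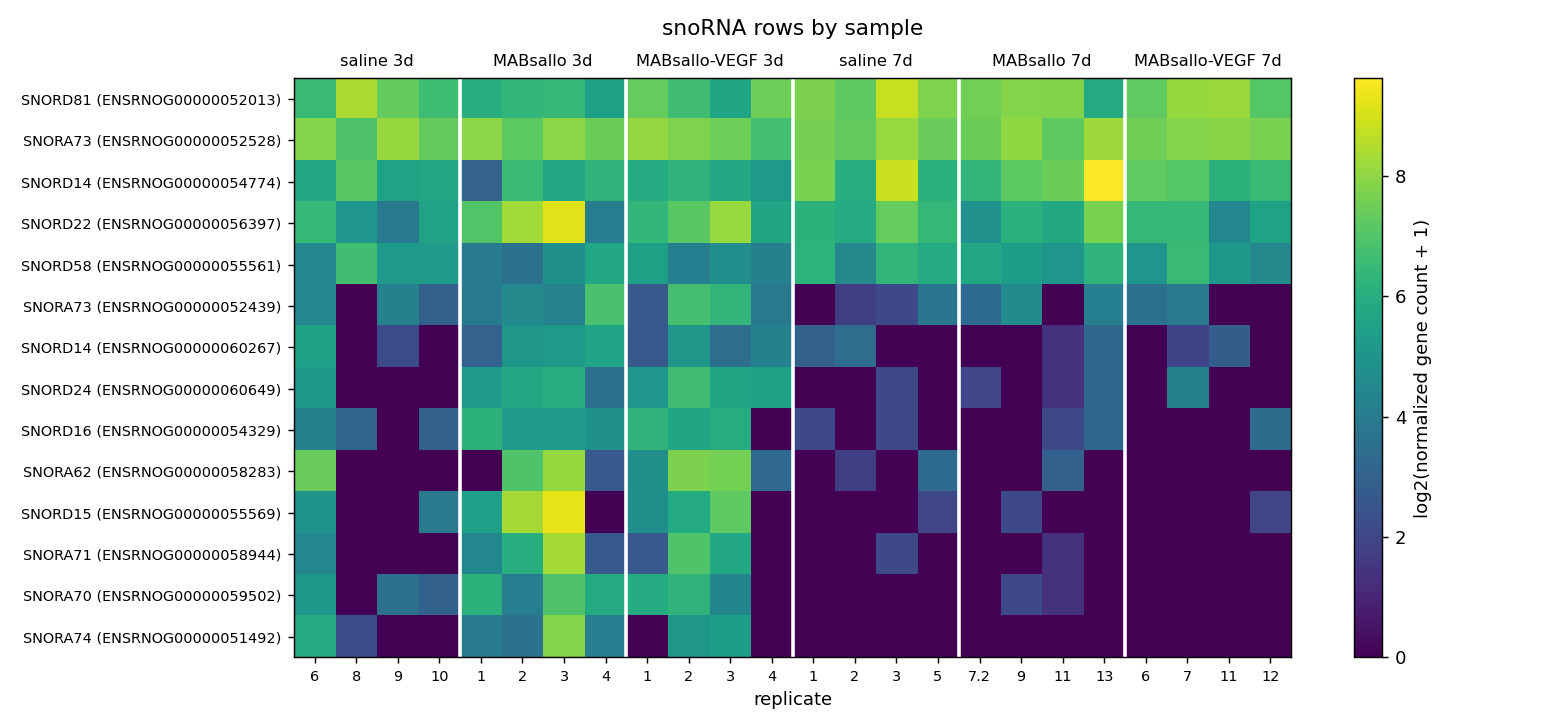
Each row is 1 of the 14 snoRNA rows, ordered by the mean at 7d, and each column a sample, grouped by treatment and day. Colour gives log2(normalized gene count + 1). The upper 5 rows were detected in all 24 samples, while most lower rows were near 0 outside the 8 high samples of 3d.

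No host gene named for these families passed the test in MABsallo against saline at 3d. Rps3, the host of SNORD15, had a mean of 24293 normalized counts in saline and 21597 in MABsallo. Rpsa, the host of SNORA62, had 18761 and 19575, and Rpl10, the host of SNORA70, had 5424 and 3659. Rpl17, the host of SNORD58, had 18231 and 13467, and its log2 fold change of -0.45 did not pass. Hspa8 had 743 and 440, a log2 difference of -0.84 (adjusted p = 0.0434), and that of Rpl10 was -0.58 (adjusted p = 0.0466), both short of the fold. Of 39 tested rows of snoRNA host genes, 2 rose in MABsallo, where 12.3% of all genes passed. They were Nop56 by 3.50 and Tcp1 by 1.51. None of the 39 fell, and their median was -0.13. With reads scaled to the same total, Nop56 and Tcp1 rose and Rps20 and Hspa8 fell. The positions of the snoRNA rows are not given here, so that each pairing with a host rests on the family name.

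U1 and U6 rows were seen in every sample, with higher group means at 3d than at 7d in each treatment. The U1 sum was 603, 709, 904 and 781 in saline at 3d and 436, 363, 593 and 267 at 7d. In MABsallo it was 1420, 514, 600 and 1329 at 3d and 284 to 791 at 7d, and in MABsallo-VEGF 968, 1025, 716 and 730 at 3d and 536 to 739 at 7d. Saline samples of the 2 days did not overlap, but the treatments overlapped within each day. The U6 sum was 654, 353, 693 and 746 in saline at 3d against 259 to 328 at 7d, again without overlap of the days. In MABsallo it was 1626, 427, 766 and 1476, and in MABsallo-VEGF 1027, 842, 726 and 695, all groups of 3d overlapping. At 7d the U6 sum was 240 to 831 in MABsallo and 351 to 551 in MABsallo-VEGF, and the latter lay above all saline samples of that day. MABsallo replicates 1 and 4 were the highest in both classes and replicate 2 the lowest, whereas replicate 3 was the highest for SRP RNA.

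Among single rows, U1 (ENSRNOG00000055394) was the highest, with 158 to 440 in saline, 120 to 456 in MABsallo and 177 to 317 in MABsallo-VEGF at 3d. U1 (ENSRNOG00000057382) spanned 63.3 to 196, 54.7 to 298 and 97.3 to 158 in the same groups. U1 (ENSRNOG00000057236) had 62.7 to 102 in saline and 111 to 208 in MABsallo-VEGF, which did not overlap, yet the adjusted p was 0.414. The 2 highest U6 rows, U6 (ENSRNOG00000060301) and U6 (ENSRNOG00000058504), spanned 35.3 to 315 and 41.7 to 170 over the 12 samples of 3d. U6 (ENSRNOG00000058044) had 145, 15.7, 64.3 and 84.5 in saline, 504, 98.5, 175 and 304 in MABsallo and 265, 117, 177 and 102 in MABsallo-VEGF (adjusted p 0.239 and 0.551 against saline). At 24 samples none of the 9 U1 and 16 U6 rows passed in either comparison with saline at 3d.

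The exception in time was U6 (ENSRNOG00000056868), which was chosen for mention after its values were seen. It had 58.5, 0, 17.9 and 38.7 in saline, 135, 54.7, 102 and 233 in MABsallo and 37.8, 250.0, 106 and 17.8 in MABsallo-VEGF at 3d, and at most 6.30 in the 12 samples of 7d. It thus met the minimum only through samples of 3d, and its difference between the days is partly set by the selection. It rose in saline at 3d against 7d by 3.86 (SE 1.04, adjusted p = 0.0388), where 3.19% of all genes passed. It did not pass there in the 22 samples (adjusted p = 0.156), in which 0.19% of all genes did. Among the same 22, it rose against saline in MABsallo (3.68, adjusted p = 0.0150) and in MABsallo-VEGF (3.48, adjusted p = 0.0370).

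U2, U4 and U7 rows did not share the pattern of the SRP RNA rows. U2 (ENSRNOG00000053242) had 51.6, 54.9, 89.3 and 45.7 in saline, 114, 43.8, 46.2 and 70.5 in MABsallo and 16.2, 33.3, 10.1 and 44.5 in MABsallo-VEGF at 3d. All MABsallo-VEGF samples lay below all saline samples, the nearest pair by less than the worth of 1 read. The difference of -1.34 did not pass in 24 samples (SE 0.48, adjusted p = 0.152), and in the 22 samples the row fell by 1.72 (SE 0.54, adjusted p = 0.0320). U2 (ENSRNOG00000054642) had 3.92 to 57.2 in saline and at most 32.4 in either cell-treated group. The U4 row had 34.4, 47.0, 75.0 and 35.2 in saline and 7.10, 27.4, 9.23 and 21.7 in MABsallo, which did not overlap, with a difference of -1.61 (SE 0.71, adjusted p = 0.121). In MABsallo-VEGF it had 5.41 and 20.2 beside 66.7 and 71.2, which lay below and within the saline range. The U7 row had 0 to 43.1 in saline, 9.23 to 42.6 in MABsallo and 13.4 to 48.7 in MABsallo-VEGF, and its group means at 7d were 8.85 to 10.4.

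The 4 7SK rows summed to 43.1 to 139 in saline, 82.1 to 347 in MABsallo and 71.2 to 242 in MABsallo-VEGF at 3d, and to 28.3 to 142 at 7d. The highest, 7SK (ENSRNOG00000052042), had 15.7 to 68.9, 21.9 to 293 and 22.3 to 233 in the 3 groups, and 1.67 to 103 at 7d. 7SK (ENSRNOG00000060704) stayed at or below 37.1 and 7SK (ENSRNOG00000053678) at or below 70.3 in all samples. No 7SK row passed in any comparison. Y_RNA (ENSRNOG00000056608) had 134, 23.5, 114 and 109 in saline, 78.1, 427, 323 and 228 in MABsallo and 206, 167, 182 and 75.7 in MABsallo-VEGF at 3d, and 54.1 to 224 at 7d. Its difference of 1.47 in MABsallo did not pass in 24 samples (SE 0.54, adjusted p = 0.0643) and passed at 1.72 in the 22 (adjusted p = 0.0300). Y_RNA (ENSRNOG00000060430) was at 0 in MABsallo replicates 1 and 4 and at 18.5 and 21.9 in the others, against 7.84 to 41.3 in saline and 17.8 to 41.7 in MABsallo-VEGF.

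**Figure D3:**
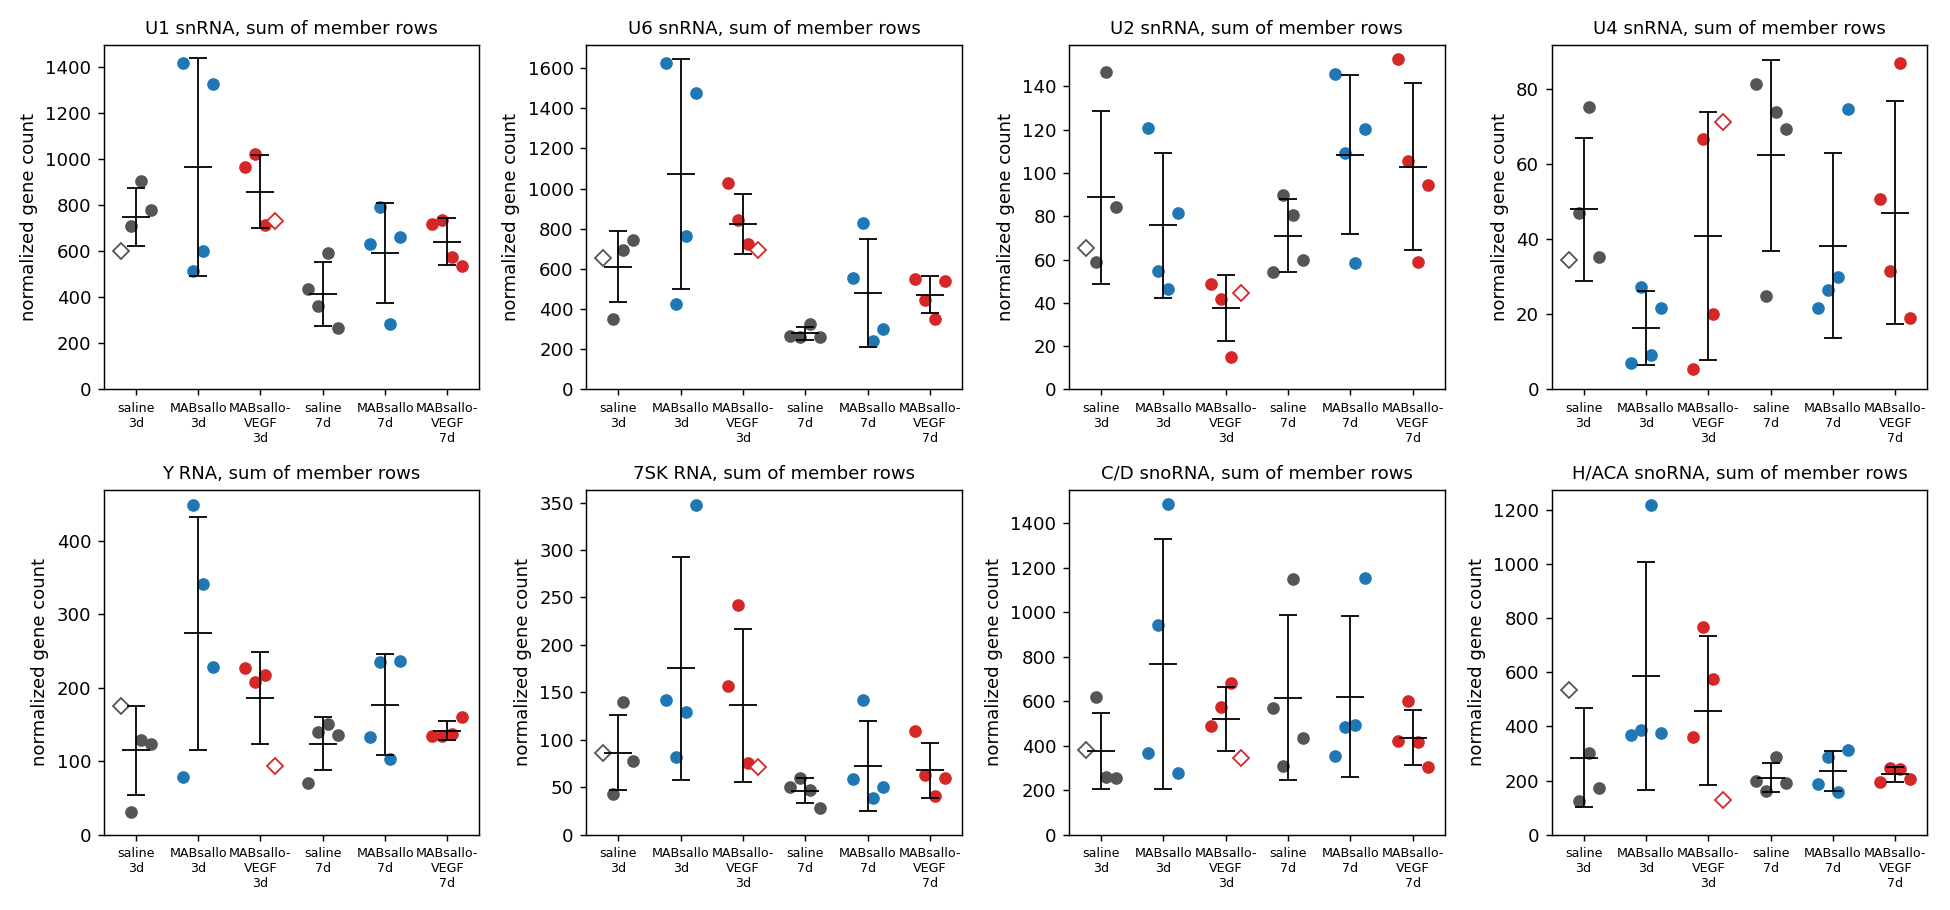
Points are samples and black bars the mean ± SD of 4 samples for the summed member rows of 8 classes, in normalized gene counts on linear axes from 0. Open diamonds are saline 3d replicate 6 and MABsallo-VEGF 3d replicate 4. Saline samples of 3d and 7d do not overlap for U1 and U6, and MABsallo lies below saline at 3d for U4. Some U6 rows met the minimum only through samples of 3d.

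Over all 62 rows, 13 rose and none fell in MABsallo against saline at 3d in 24 samples (background 12.3%), namely the 10 SRP RNA rows, Gm26083, SNORA71 and SNORD24. An unadjusted p below 0.05 was found for 28 rows. The count was 0 when only saline and MABsallo of 3d were fitted and 8 by DESeq2, and 8 to 21 on leaving out 1 sample. Without the pair, 24 rose and none fell (background 18.1%). In MABsallo-VEGF against saline none passed in 24 samples (background 0.0307%), although 17 had an unadjusted p below 0.05. Without the pair, 18 rose, while U2 (ENSRNOG00000053242) fell (background 13.6%). Between MABsallo-VEGF and MABsallo at 3d no row passed in 24 samples (6 with an unadjusted p below 0.05, background 0.00614%) or in 22 samples (5 with an unadjusted p below 0.05, background 0.0184%). All 12 SRP RNA rows were lower in MABsallo-VEGF in 24 samples, with a median of -2.82 and a lowest adjusted p of 0.434, which did not pass. Without the pair, 11 of the 12 were lower, with a median of -1.27.

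**Figure D4:**
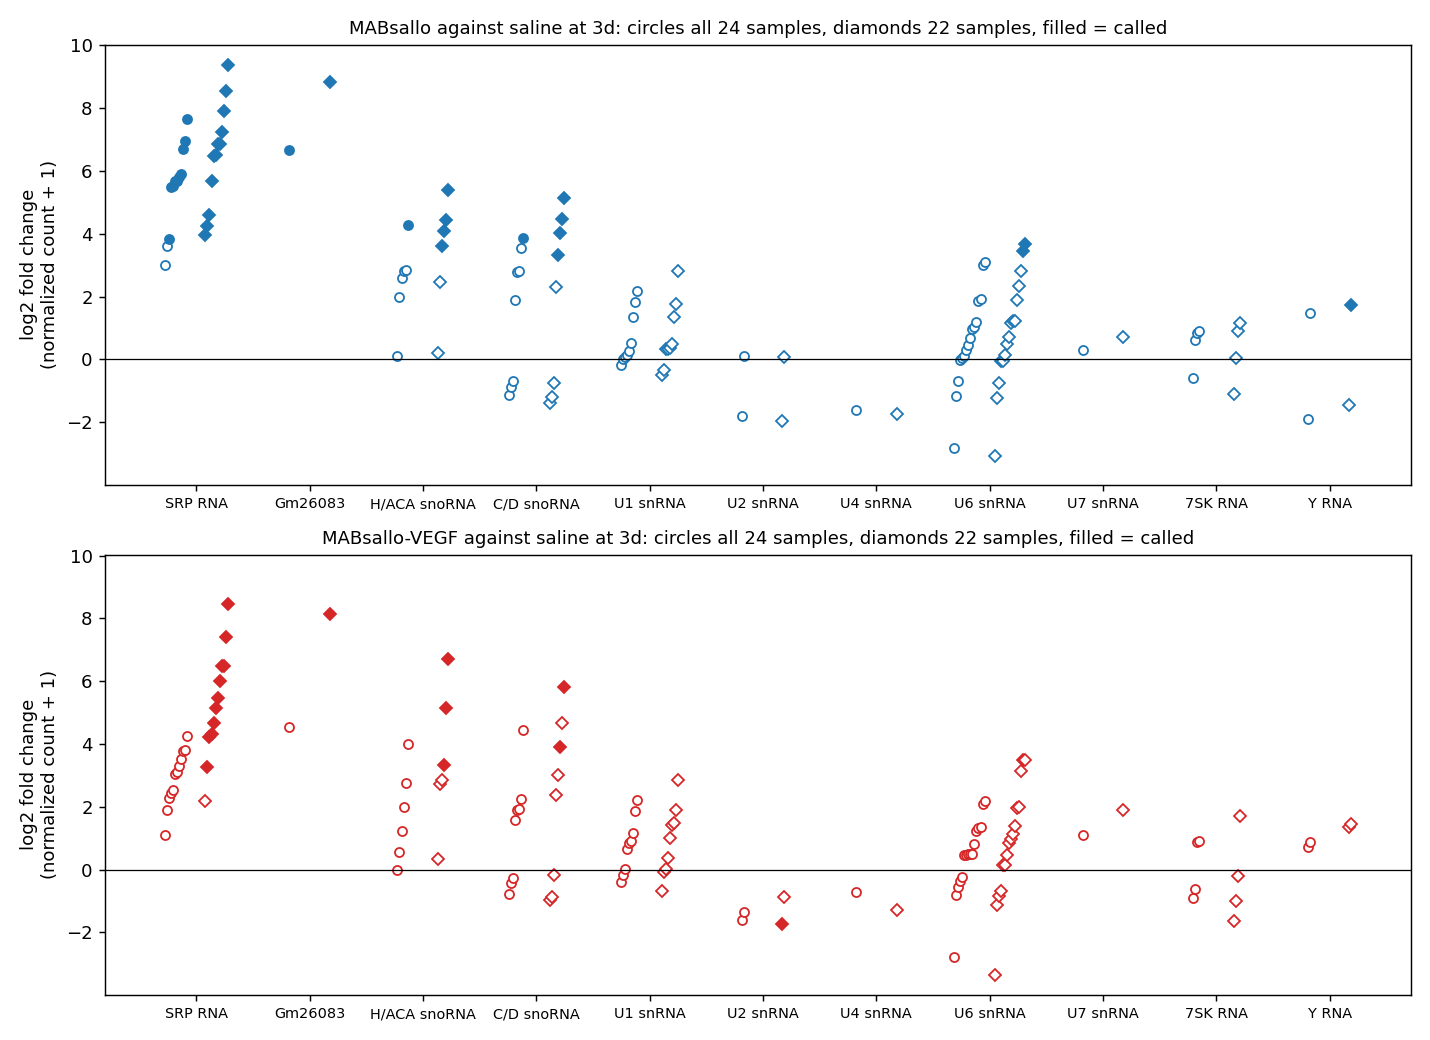
Each point is 1 of the 62 rows, placed by class on the x axis, with its log2 fold change on log2(normalized gene count + 1) on the y axis, for MABsallo (upper) and MABsallo-VEGF (lower) against saline at 3d. Circles are fits of all 24 samples and diamonds of 22, and filled symbols passed the test. SRP RNA rows reach 7.66 in MABsallo and 4.25 in MABsallo-VEGF in 24 samples, and 9.39 and 8.47 in the 22.

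The selection itself favoured rows that were high in the cell-treated samples of 3d. Over the other 16 samples of the study only 34 of the 62 rows had a mean of at least 10, and over the 12 samples of 7d 30 did. The count of rows that rose is therefore no support for a rise of these RNAs as a class. Of the 30 rows that reach the minimum at 7d, none passed in MABsallo against saline at 3d and their median log2 fold change was 0.09. Of the other 32, 13 rose, with a median of 3.05. Without the pair, the same counts were 1 of 30 and 23 of 32. For MABsallo-VEGF in the 22 samples, 1 of the 30 fell and 18 of the 32 rose. All 13 rows that rose in 24 samples had a mean under 10 at 7d. Of all genes, 12.3% passed in MABsallo in 24 samples, and 18.1% in MABsallo and 13.6% in MABsallo-VEGF without the pair. Every row has a mean of at least 10 over the 24 samples, so 1 with a mean under 10 at 7d was higher at 3d by selection. The split by the mean at 7d thus sorts rows by values that the rule used, and its counts support no conclusion. No SRP RNA row had a mean of at least 10 at 7d.

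At 7d no row passed in MABsallo against saline, in MABsallo-VEGF against saline or in MABsallo-VEGF against MABsallo, where the background was 0% in each comparison. The 62 rows summed to 1419 to 2753 in saline, 1438 to 2924 in MABsallo and 1924 to 2385 in MABsallo-VEGF, which overlapped. SRP RNA rows were at 0 in all 12 samples for 5 of the 12. The difference between the days was tested as an interaction of treatment and day. No row passed in 24 samples (background 0% for both treatments), with 13 rows for MABsallo and 9 for MABsallo-VEGF at an unadjusted p below 0.05. In the 22 samples 11 rows passed for MABsallo (background 3.56%) and 12 for MABsallo-VEGF (background 3.59%), all with a larger difference from saline at 3d. They were SRP RNA rows (9 and 8), Gm26083 in both, H/ACA rows (1 and 2) and, for MABsallo-VEGF, 1 C/D row. Neither Gm26083 nor any SRP RNA row had a mean of at least 10 at 7d, and the pair left out is unlike its groups in such rows. These counts are therefore no support for a difference between the days.

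Genes of the proteins that bind these RNAs were read from lists in MABsallo against saline at 3d, where 12.3% of all genes passed. None of 6 tested SRP protein and receptor genes passed. Srp19 had a log2 fold change of -0.55, Srpra of 1.20, Srp68 of -0.44 and Srp14 of 0.28, and the median was -0.38. None of 6 genes of the 7SK particle passed, with Larp7 at 0.67 (adjusted p = 0.140). Of 3 Ro and La genes, Ro60, which binds Y RNAs and misfolded small RNAs, rose by 2.30 (SE 0.64, adjusted p = 0.0221), and Ssb, the La protein, had 0.56 (adjusted p = 0.0511).

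Of 44 tested genes of spliceosomal particles, 2 rose and 1 fell, with a median of 0.01. Prpf31, a tri-snRNP factor, rose by 1.79 and the Sm protein gene Snrpd3 by 1.10, while the Sm protein gene Snrpd1 fell by 1.99. Of 13 genes of particle assembly, Coil (coilin of Cajal bodies) rose by 1.93 and Gemin5 by 1.07, and Gemin6 fell by 1.82. None of 4 genes of U7-dependent histone mRNA processing passed. Of 14 snoRNP genes, Nop56, a core C/D box protein that also hosts snoRNAs, rose by 3.50 (SE 0.82, adjusted p = 0.0115), while Shq1 fell by 2.24 and Snu13 by 1.11.

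Of 26 genes of RNA polymerase III and its factors, which transcribe SRP RNA, U6, 7SK and Y RNA, 4 rose and none fell. These were Polr3b by 1.98, Gtf3c3 by 1.87, Bdp1 by 1.45 and Gtf3c1 by 1.18, with a median over the list of 0.13. Ints13 was the 1 of 13 Integrator genes that rose (1.28). Dis3, an exosome nuclease, was the 1 of 22 genes of small RNA tailing and decay that rose (2.25), with Zcchc8 at 0.86 under the fold. With reads scaled to the same total, 2 polymerase III genes (Polr3b and Gtf3c3) and no Integrator gene rose, and Snrpd3 and Gemin5 were no longer called. The background for these counts is the 12.3% of all genes, and nothing particular to a list is read from them. In MABsallo-VEGF against saline in 24 samples, Ccnt1, cyclin T1 of P-TEFb, rose by 4.40 (SE 0.77, adjusted p = 0.0314), and no other gene of these lists passed.

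Structured RNA rows under other names, not counted among the 62, were looked at in the same fit. Of 21 such rows with a mean of at least 10, 6 rose in MABsallo against saline in 24 samples (background 12.3%). The minimum was met over all 24 samples, so that rows high only in some samples of 3d entered through these, and the count supports nothing about such RNAs as a class. The rows were 4 5S ribosomal RNA rows, with 5S_rRNA (ENSRNOG00000045002) at 6.72 (SE 1.82, adjusted p = 0.0193), the Vault RNA row at 4.42 (SE 1.15, adjusted p = 0.0161) and Snord89 at 3.78 (adjusted p = 0.0485). With reads scaled to the same total, 5 rose and 1 fell, and Snord89 did not pass. RNase P, RNase MRP, U12 and U8 rows did not pass. Without the pair, 7 rose and 1 fell in MABsallo (background 18.1%), and 5 rose and 1 fell in MABsallo-VEGF (background 13.6%). At 7d none of the 21 passed.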

How the data were processed

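Urethral RNA of 24 rat samples was sequenced as QuantSeq 3ʹ mRNA libraries. Per the paper's methods, reads were trimmed by fastq-mcf and placed on Rnor6.0 by HISAT2, those with several alignments were dropped, and HTSeq gave a count for each gene. The authors deposited these after division by DESeq2 size factors, so the deposited signal is a normalized gene count. The HISAT2 version is not given in the sources used here. All values (100%, within 0.001) were whole multiples of 1 read, and these reads were recovered for DESeq2 1.42.0 and edgeR 4.0.16. Samples had 2170695 to 10166052 reads.

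Rows were selected by name and a mean of at least 10, and kept apart by identifier. The members, gene lists and tests were chosen with earlier results of these data known. The main test was limma 3.58.1 (R 4.3.3, trend, two-sided) on log2(normalized gene count + 1) in 1 fit of 6 groups, for genes with a mean of at least 2, with Benjamini-Hochberg adjustment over all genes tested. On this scale the size of a difference in rows with few reads depends on the added 1. That 1 was less than the worth of 1 read, 1.67 to 9.23 normalized counts. For Gm26083 in MABsallo against saline at 3d in 24 samples, the difference was 6.67 on this scale and smaller by DESeq2 and edgeR. Whether the samples of a group are separate animals is not stated in the labels for each, so p-values measure the spread between samples. The fits were tested on simulated data with known changes, 1 spread for all genes and no samples unlike their group. The rows described here differ from this in their spread and in the pair, so the simulation is no check of their calls. The 22 samples leave out saline 3d replicate 6 and MABsallo-VEGF 3d replicate 4. The study's plots show 3 samples of each of these groups without naming them, so that these are the samples left out there is an inference from their values.

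Rows named are the 3 highest of each class, the 3 largest called differences without overlap per comparison with saline at 3d, any row called between cell groups or at 7d, and up to 4 genes per partner list with the smallest adjusted p. Others were named after their values were seen. Alternatives were a pseudocount of 5, no filter, the same total, only the groups compared, DESeq2, edgeR, a replicate block, 22 samples and leaving out each sample. DESeq2, edgeR and leaving out samples within the 22 were added after seeing the data. No sequence or position is given, as the reference tables used held no entry for these rows.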

Additional observations from a re-analysis of the deposited data

Results flagged for a closer look

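Within their groups of 4, 16 values lay far from the other 3 samples by Dixon's test at 95%. The test was applied to 72 groups of 4 for class sums and 81 for named rows. Of independent groups with normal values chance flags about 1 in 20. The counts here were not transformed, many were at 0, and sums were tested beside their own rows. That rate need not hold for them. The Gm26083 value of 2217 in saline 3d replicate 6 stood against 3.52 to 7.15, and the SRP RNA sum of 754 there against 3.52 to 19.6. In the same sample single rows stood out with 337, 99.9, 141, 13.8 and 13.8 for Metazoa_SRP (ENSRNOG00000059449, ENSRNOG00000053902, ENSRNOG00000048993, ENSRNOG00000055749 and ENSRNOG00000052253), with 172 for SNORA62 and with 20.7 for SNORA71, the other 3 samples being at 0 to 7.84. These 9 values belong to 1 sample and are not independent.

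The H/ACA sum of 1219 in MABsallo 3d replicate 3 stood against 369 to 388, the Y RNA sum of 93.5 in MABsallo-VEGF 3d replicate 4 against 208 to 227, and the SNORD14 (ENSRNOG00000054774) value of 141 in saline 3d replicate 8 against 46.5 to 55.1. At 7d the U4 sum of 74.7 in MABsallo replicate 13 stood against 21.7 to 30.0, the U6 sum of 328 in saline replicate 3 against 259 to 267, the Y RNA sum of 161 in MABsallo-VEGF replicate 12 against 134 to 137, and Gm26083 at 0 in MABsallo-VEGF replicate 6 against 2.85 to 3.15, which is 1 read.

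The difference from saline was larger at 3d than at 7d by the interaction test in the 22 samples for 11 rows in MABsallo (background 3.56%) and 12 in MABsallo-VEGF (background 3.59%). In 24 samples this held for 0 rows (background 0% for both). The pair left out is unlike its groups in such rows, and most of the rows met the minimum only through samples of 3d. The counts in the 22 samples are therefore no support for a difference between the days.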

How the results depend on the processing

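In MABsallo against saline at 3d, 13 rows were called, and 0 with only the groups compared, 8 by DESeq2 and 24 in the 22 samples. Leaving out single samples gave 8 (without saline replicate 8) to 21 (without saline replicate 6). In MABsallo-VEGF against saline the count of 0 became 1 with a pseudocount of 5 and 19 in the 22 samples. Leaving out single samples gave 0 to 15, with 11 without saline replicate 6 and 15 without MABsallo-VEGF replicate 4. For saline at 3d against 7d, the count of 1 became 0 with a pseudocount of 5, without the filter, with only the groups compared and in the 22 samples, 8 by DESeq2 and 3 by edgeR, and 0 to 6 on leaving out single samples (6 without saline 3d replicate 8). For the interaction of treatment and day, 0 became 11 (MABsallo) and 12 (MABsallo-VEGF) in the 22 samples, and 0 to 8 for MABsallo on leaving out single samples (8 without saline 3d replicate 6). The cause was not tested. For fits without single samples, by DESeq2 or by edgeR, the share of all genes called is not given here. Within the 22 samples, DESeq2 gave 24 and 16 calls, edgeR 20 and 15, and leaving out single samples 17 to 24 and 14 to 20 for MABsallo and MABsallo-VEGF. No called row changed sign. Scaling to the same total moved the median of all genes in MABsallo against saline from 0.07 to -0.19 and the calls from 1531 up and 466 down to 1102 and 1021, while 13 of the 62 rows were called in both.

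With the replicate number as a block, 0 rows differed between MABsallo-VEGF and MABsallo at 3d, as without it. Deviations of same-numbered samples from their group means had correlations of 0.211, 0.145, 0.068 and 0.245 for numbers 1 to 4. The same-numbered sample was the best match for numbers 1, 2 and 4, but not for number 3. Whether the shared numbers mark a pairing was not tested. One read was worth up to 9.23 normalized counts, which limits the lowest rows.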
